A study of Homo sapiens with 6 samples.

Results

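The constitutive proteasome subunits are here 34 genes, those of the core particle (PSMA1 to PSMA7 and PSMB1 to PSMB7) and those numbered with its cap (PSMC1 to PSMC6 and PSMD1 to PSMD14). PSMD5, PSMD9 and PSMD10 among them are chaperones, and ADRM1, a ubiquitin receptor of the cap, is not among them. The 34 genes were chosen by name and not by a cut on measured values, although earlier results of these data were known. HT29 cells come from a human colon adenocarcinoma and grow as an established line. Methotrexate (MTX) is an antifolate drug that inhibits dihydrofolate reductase. RNA from 3 samples of HT29 cells resistant to 10 μM MTX and from 3 samples of sensitive HT29 cells was hybridized to HG U133 PLUS 2.0 arrays, which compare transcript levels through sets of short probes, in a search for genes deregulated along with resistance. Resistant cells were grown in medium lacking glycine, hypoxanthine and thymidine, with dialyzed serum, whereas sensitive cells received Ham's F12 with serum that had not been dialyzed. Resistance and medium therefore cannot be told apart. The samples of a group are called triplicates, and no source used here states that they came from separate cultures, so the p-values reflect spread among these samples alone, and that spread may be technical.

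Of the 34 genes, 30 were measured (13 of 14 core subunits and 17 of 20 cap subunits) among 11835 genes tested in all. PSMA6 was represented only by probe sets that also name PRORP, and PSMC5, PSMD7 and PSMD13 were not analysed here. All values are scaled signals, which are the deposited MAS5 signals divided by the median of the array, and a value of 1 thus stands for the median probe set of an array. The probe set with the highest mean scaled signal among those naming 1 gene stood for each gene. All 30 members were bright, with mean scaled signals between 30.5 and 293, and all 30 passed the filter at a mean of 1.

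The proteasome is the protease that degrades proteins marked with ubiquitin. Its core is a barrel of stacked rings. The outer rings are made of alpha subunits (PSMA genes), which control entry, and the inner rings of beta subunits (PSMB genes), of which PSMB5, PSMB6 and PSMB7 cut the peptide chain. The cap sits on the end of the barrel, where a ring of ATPases (PSMC genes) unfolds the substrate and the non-ATPase subunits (PSMD genes) hold, recognize and deubiquitinate it. Cells under interferon replace the catalytic subunits with the inducible ones PSMB8, PSMB9 and PSMB10, which favour peptides for MHC class I. In many cells a shortfall of proteasome activity raises the transcription of the subunit genes together, through the factor NFE2L1.

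The mRNAs of the 30 measured members differed little between resistant and sensitive cells. With arrays scaled to their median and the brightest probe set of each gene, no member moved as much as 1.5-fold. Of all genes 9.15% were called higher and 14.0% lower with at least that change (1.94% and 2.19% with 3-fold). All genes include dim ones, with a median standard error of 0.18, against 0.11 for the members. The 1.5-fold share among genes of the members' brightness was not computed. PSMD2 passed 1.5-fold under 3 of 5 scalings, PSMB7 when averaged with a probe set near the filter and PSMD1 without resistant replicate 3. PSMD2 was higher, 9 were lower and the other 20 did not pass the test (limma, adjusted p under 0.05 over all 11835 genes). Over all tested genes 12.4% were called higher and 22.5% lower (34.9% in either direction), so the share of subunits called lower was not far above the background. The 9 lower members were PSMA4, PSMA7, PSMB5, PSMB7, PSMC2, PSMC3, PSMC4, PSMC6 and PSMD1. At an unadjusted p under 0.05, 1 member was higher and 14 were lower. The share of all genes at that cut was not computed, here or for the other unadjusted counts below. The log2 fold change (resistant over sensitive) was below 0 in 26 of 30 members, against 58.2% of all genes, and ranged from -0.49 to 0.54 with a median of -0.22, against -0.10 over all genes. The 26 depended on the scaling, and 16 to 22 were below 0 under the 4 other scalings described further on. The groups did not overlap for 1 member that was higher and 13 that were lower, against 16.8% and 29.3% of all genes. In cells of a line, less of these mRNAs per cell and fewer cells that make them cannot be told apart.

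Bright genes as a whole leaned the same way. Among the 2723 tested genes with a mean scaled signal within the range of the members, 34.1% were called lower and 11.7% higher, 68.7% had a log2 fold change below 0, and the median was -0.20, close to the median of -0.22 of the subunits. This background was chosen after the values were seen. The count of lower members also rested on single arrays. It was 3 without resistant replicate 2 and 4 without sensitive replicate 1, against 17.0% and 16.1% of all genes. It was 0 when limma's eBayes was run without a mean-variance trend, and 0 by the methods' t-test as well, which left 6 and 8 members lower at an unadjusted p under 0.05. PSMD2 was called higher in each of these 4 analyses.

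**Figure D1:**
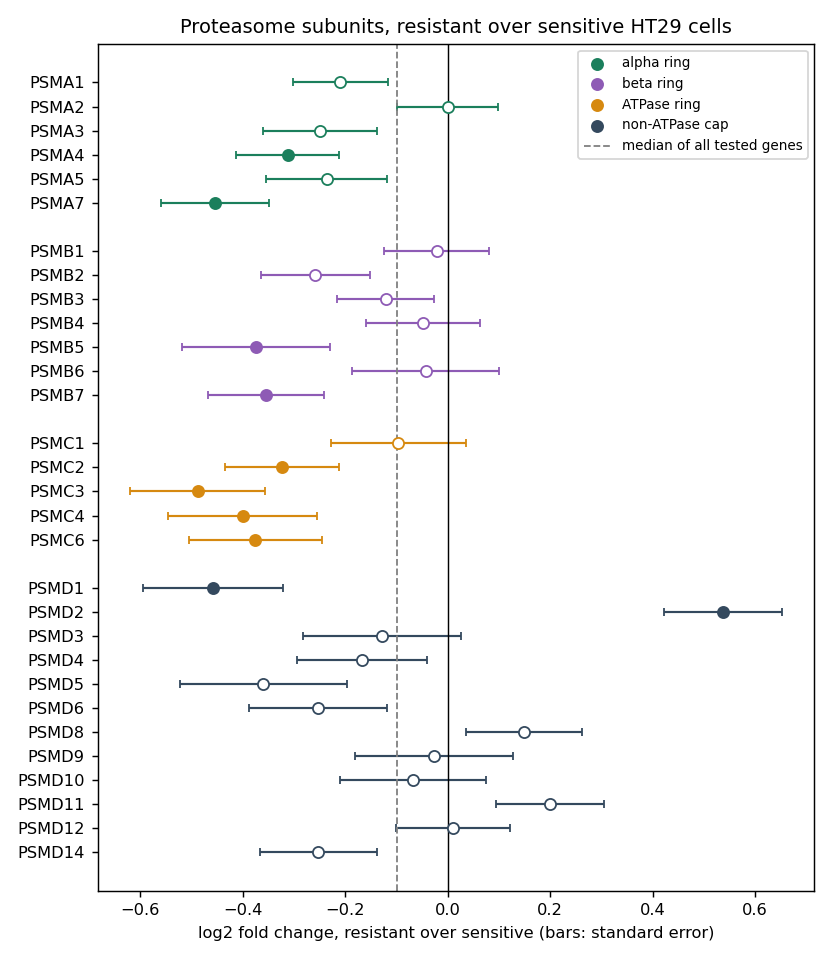
Log2 fold change (resistant over sensitive HT29 cells, 3 arrays each) of the 30 measured proteasome subunits, grouped by ring, with bars for the standard error of the fit, filled points for members called at an adjusted p under 0.05, open points for the others, and a dashed line at the median of all tested genes (-0.10). PSMD2 stands alone at 0.54, the 9 called lower lie between -0.49 and -0.31, and 13 of 13 core subunits lie at or below 0.

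PSMD2 is a scaffold of the cap's base that docks ubiquitin-binding shuttle proteins. Its scaled signal was 143, 137 and 152 on the resistant arrays, against 101, 94.7 and 101 on the sensitive arrays. Every resistant array was above every sensitive array. The level was 1.45-fold higher in resistant cells, a log2 fold change of 0.54 (SE 0.12, limma adjusted p = 0.000311). Over 18 alternatives with no fold threshold, including each array left out in turn, the value stayed between 0.50 and 0.73 and was called in all of them, with an adjusted p of at most 0.0475.

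PSMD1, the other large scaffold of the base, moved in the opposite direction. Its scaled signal was 56.4, 55.8 and 74.1 on the resistant arrays, against 87.8, 81.7 and 84.4 on the sensitive arrays. The groups did not overlap, although resistant replicate 3 lay closer to the sensitive arrays than to the other resistant ones. The log2 fold change was -0.46 (SE 0.14, limma adjusted p = 0.0075), and a dimmer probe set of PSMD1 had -0.33 without passing the test (adjusted p = 0.086 over all probe sets). The call was lost under quantile normalization (adjusted p = 0.0931), when arrays were scaled to genes as bright as the members, and with each of the other tests, among them the methods' t-test (adjusted p = 0.103). PSMD4, a ubiquitin receptor in the base, did not pass the test (-0.17, 95% interval -0.42 to 0.09).

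In the ATPase ring 4 of the 5 measured members were lower, with a ring median of -0.38. These subunits pull the substrate into the core and open its gate. After quantile normalization 2 of the 5 were lower, PSMC2 and PSMC3. PSMC3 had scaled signals of 76.7, 60.9 and 74.8 in resistant cells, against 110.0, 91.3 and 95.9 in sensitive cells. With no overlap, its log2 fold change was -0.49 (SE 0.13, adjusted p = 0.0033, limma). PSMC4 had 46.7, 35.8 and 44.7 in resistant cells, against 59.9, 55.1 and 52.1 in sensitive cells. PSMC6 had 88.3, 67.0 and 81.3 in resistant cells, against 108, 93.3 and 104 in sensitive cells. Both were lower on every resistant array, with log2 fold changes of -0.40 and -0.38 (SE 0.15 and 0.13, limma adjusted p = 0.0294 and 0.0215). Each lost its call in 9 of the 18 alternatives. Without resistant replicate 2, sensitive replicate 1 or sensitive replicate 3 the log2 fold change of PSMC4 was -0.28, -0.35 or -0.45 and that of PSMC6 was -0.26, -0.33 or -0.36, with adjusted p between 0.0558 and 0.141 in limma, and PSMC4 also lost its call without sensitive replicate 2 (-0.41, adjusted p = 0.0967). PSMC3 kept its call whichever array was left out. PSMC1, the fifth ATPase measured, had -0.10 (95% interval -0.36 to 0.17).

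PSMC2, also an ATPase, was read differently by its probe sets. The brightest had scaled signals of 168, 145 and 179 in resistant cells, against 236, 187 and 194 in sensitive cells. It was lower, by -0.32 on the log2 scale (SE 0.11, limma adjusted p = 0.0204). A second probe set had 56.2, 44.8 and 54.3 in resistant cells, against 43.4, 41.3 and 41.4 in sensitive cells, and did not pass the test (0.29, adjusted p = 0.11 over all probe sets). The dimmest probe set had 20, 17.2 and 21.4 in resistant cells, against 13.7, 13.3 and 15.8 in sensitive cells, and was called higher (0.45, adjusted p = 0.0384 over all probe sets, limma). The mean of the 3 gave 0.14, so that the direction for PSMC2 depends on the probe set, and PSMC2 was the only member called in both directions. Without resistant replicate 2 or sensitive replicate 1 the brightest probe set gave -0.24 or -0.22 and lost its call (adjusted p = 0.115 and 0.162 in limma).

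**Figure D2:**
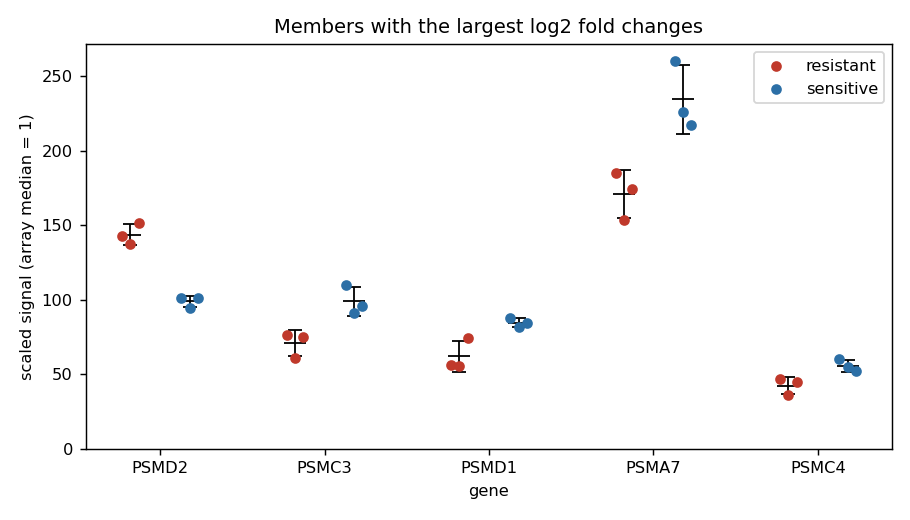
Scaled signal (array median = 1, axis from 0) of the 5 members with the largest log2 fold changes, with a point for each of 3 resistant and 3 sensitive arrays, a line at the mean and bars for the SD. The resistant arrays of PSMD2 lie above its sensitive ones, and the resistant arrays of PSMC3, PSMD1, PSMA7 and PSMC4 lie below theirs with no overlap.

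The promoters of PSMD2 and of 3 members called lower are shown because PSMD2 was the only member called higher. The other 3 had the most negative log2 fold changes among the measured members of the base. They were taken from RefSeq (GRCh38.p14), from 250 bases before to 50 bases after the annotated start, and are written along the gene's own strand. Capitals mark matches, on either strand, to the antioxidant response element (ARE, TGACNNNGC), to which NFE2L1 and NFE2L2 bind, the CCAAT box (CCAAT), the GC box (GGGCGG) and a site for ETS factors (CCGGAAG). The region of PSMD2 is chr3:184298991-184299290, that of PSMD1 chr2:231056617-231056916, that of PSMC3 chr11:47426390-47426689 on the minus strand, and that of PSMC4 chr19:39970915-39971214.
PSMD2: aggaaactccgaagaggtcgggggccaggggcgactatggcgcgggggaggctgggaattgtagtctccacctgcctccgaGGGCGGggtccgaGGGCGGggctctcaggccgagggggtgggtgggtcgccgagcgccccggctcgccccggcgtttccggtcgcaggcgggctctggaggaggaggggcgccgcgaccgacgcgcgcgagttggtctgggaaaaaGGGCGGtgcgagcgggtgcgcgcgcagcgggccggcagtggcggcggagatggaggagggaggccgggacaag
PSMD1: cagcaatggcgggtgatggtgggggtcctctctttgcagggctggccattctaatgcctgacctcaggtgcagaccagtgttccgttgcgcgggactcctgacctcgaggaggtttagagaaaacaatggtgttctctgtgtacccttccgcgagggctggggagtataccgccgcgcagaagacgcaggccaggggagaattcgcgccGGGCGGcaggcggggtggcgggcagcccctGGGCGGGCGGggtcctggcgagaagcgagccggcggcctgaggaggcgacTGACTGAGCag
PSMC3: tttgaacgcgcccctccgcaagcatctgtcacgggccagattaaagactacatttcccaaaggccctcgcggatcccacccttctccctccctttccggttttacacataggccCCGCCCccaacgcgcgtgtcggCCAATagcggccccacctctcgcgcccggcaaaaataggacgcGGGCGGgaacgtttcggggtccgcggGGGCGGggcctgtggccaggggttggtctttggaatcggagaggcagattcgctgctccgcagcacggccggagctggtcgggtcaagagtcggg
PSMC4: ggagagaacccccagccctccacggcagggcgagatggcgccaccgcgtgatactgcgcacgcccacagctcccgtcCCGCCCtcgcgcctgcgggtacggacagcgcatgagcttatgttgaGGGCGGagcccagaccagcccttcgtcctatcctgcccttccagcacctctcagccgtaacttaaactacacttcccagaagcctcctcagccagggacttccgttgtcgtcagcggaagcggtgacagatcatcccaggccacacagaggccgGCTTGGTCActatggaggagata

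PSMD2 had 3 GC boxes and no other match. PSMD1 had 3 GC boxes, of which 2 share bases, and an ARE match near the end of the window, downstream of the start. PSMC3 had a CCAAT box and 3 GC boxes. PSMC4 had 2 GC boxes and an ARE match on the opposite strand. Of the 34 members, 29 had a promoter in the RefSeq table. The ARE was found in 7 of the 29 (24.1%), against 13.6% of 27305 promoters of the same length. The members with it were PSMB3, PSMC4, PSMD1, PSMD3, PSMD5, PSMD9 and PSMD12, of which PSMC4 and PSMD1 were called lower. The CCAAT box was in 15 of 29 (51.7%, against 35.7%), the GC box in 19 (65.5%, against 44.6%) and the ETS site in 10 (34.5%, against 10.7%). No ARE match shared bases with another motif in a member's promoter. The motifs and the promoters shown were chosen after the values were seen, and a match is a description of the letters and not of binding.

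The alpha ring had 2 lower members of 6, and its median was -0.24. PSMA7 had scaled signals of 185, 154 and 174 in resistant cells, against 260.5, 226 and 217 in sensitive cells. It was lower on every resistant array (-0.45, SE 0.11, limma adjusted p = 0.000797), and its second probe set was lower by nearly the same amount (-0.49, adjusted p = 0.0042 over all probe sets). PSMA4 had 213, 186 and 198 in resistant cells, against 247, 228 and 268 in sensitive cells, also without overlap (-0.31, SE 0.10, limma adjusted p = 0.0135). PSMA7 kept its call whichever array was left out, whereas PSMA4 lost it in 9 of 18 alternatives, among them 3 scalings (the deposited signals, the median of probe sets past the filter, and genes as bright as the members, with -0.27, -0.21 and -0.12), without resistant replicate 2 (-0.26, adjusted p = 0.0507) and without sensitive replicate 3 (-0.25, adjusted p = 0.131). PSMA1, PSMA3 and PSMA5 had log2 fold changes between -0.25 and -0.21 with no overlap between the groups, and none of the 3 passed the test (adjusted p = 0.0755, 0.0777 and 0.117 by limma). Another probe set of PSMA1, nearly as bright, was called lower (-0.27, adjusted p = 0.0347 over all probe sets, limma), whereas its dimmest was not called (-0.22). PSMA2 had the same mean of 223 in both groups, with a 95% interval for the log2 fold change of -0.20 to 0.20.

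The beta ring had 2 lower members of 7, both catalytic, and a median of -0.12. PSMB5, which carries the chymotrypsin-like activity and is the main target of bortezomib, had scaled signals of 73.3, 50.7 and 63.8 in resistant cells, against 94.7, 79.7 and 68.5 in sensitive cells. It was called lower (-0.37, SE 0.14, limma adjusted p = 0.0407), but resistant replicate 1 was above sensitive replicate 3, and the call was lost in 11 of 18 alternatives, among them without resistant replicate 2 (-0.23, adjusted p = 0.237), without sensitive replicate 1 (-0.26, adjusted p = 0.253) and without sensitive replicate 2 (-0.38, adjusted p = 0.0907). Over all probe sets its adjusted p was 0.0581. PSMB7, with the trypsin-like activity, had 150.4, 123 and 129 in resistant cells, against 188, 161 and 164 in sensitive cells. It was lower without overlap (-0.35, SE 0.11, limma adjusted p = 0.0128) and lost its call in 8 of 18 alternatives, among them without resistant replicate 2 (-0.29), resistant replicate 3 (-0.33) and sensitive replicate 1 (-0.28), with adjusted p between 0.0517 and 0.0846. PSMB6, with the caspase-like activity, had 76.9, 55.4 and 58.2 in resistant cells, against 74.4, 61.3 and 59.5 in sensitive cells. These groups overlapped throughout, and the log2 fold change was -0.04 (95% interval -0.33 to 0.25, limma adjusted p = 0.847). That interval overlaps those of PSMB5 (-0.67 to -0.08) and PSMB7 (-0.58 to -0.13), and the difference between them was not tested. With its probe sets averaged PSMB7 had -0.69. That average includes a probe set near the filter, with a mean scaled signal of 1.17. It had -1.03 and was not called (adjusted p = 0.098 over all probe sets, limma). Of the non-catalytic members, PSMB2 had -0.26 by its brightest probe set (adjusted p = 0.0561), whereas a much dimmer one was called higher (0.77, adjusted p = 0.0129 over all probe sets) and the mean of its probe sets gave 0.18, and PSMB1, PSMB3 and PSMB4 lay between -0.12 and -0.02, none past the test in limma.

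The lid and the assembly factors gave no call. The lid, which removes ubiquitin chains through PSMD14, had 6 measured subunits (PSMD3, PSMD6, PSMD8, PSMD11, PSMD12 and PSMD14) with a median of -0.06, of which limma called 0 and 1 (PSMD14) was lower at an unadjusted p under 0.05. PSMD14 itself had -0.25 (95% interval -0.48 to -0.02, adjusted p = 0.0805). PSMD11 and PSMD8 had positive values of 0.20 and 0.15 (intervals -0.01 to 0.41 and -0.08 to 0.38). The brightest probe set of PSMD12 had 0.01 (adjusted p = 0.955), whereas its dimmer one was lower by -0.57 (adjusted p = 0.00261 over all probe sets, limma). PSMD5, PSMD9 and PSMD10 are chaperones of the base despite their names. Limma called 0 of these 3, and PSMD5 alone was lower at an unadjusted p under 0.05, with -0.36 (adjusted p = 0.0827).

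Core and cap were set against each other. The core had 0 higher and 4 lower of 13 (0 and 7 at an unadjusted p under 0.05), and a median of -0.24. The cap had 1 higher and 5 lower of 17 (1 and 7 at an unadjusted p under 0.05), and a median of -0.17. With the array median all 13 core values were at or below 0, against 13 of 17 cap values. After quantile normalization these numbers were 9 and 8. The medians differed by -0.07 (core minus cap). Taken by array, the difference had a larger SD of 0.10 over the 3 resistant arrays. That SD is a spread of single arrays of 1 group and not the error of the -0.07. By array the difference was -0.05, 0.09 and -0.10 in resistant cells and -0.01, 0.02 and -0.03 in sensitive cells, so its sign was not the same within a group. The difference of the medians was -0.14 after quantile normalization, for which no spread by array was computed, and -0.0026 with probe sets averaged. The cap median was 0.01 after quantile normalization and 0.02 with the scaling to genes as bright as the members, against -0.17 with the array median, so its sign depended on the scaling. Lower core members numbered 7 without resistant replicate 1, 1 without resistant replicate 2 and 2 without sensitive replicate 1, and lower cap members numbered 2, 2 and 3 without resistant replicate 2, sensitive replicate 1 and sensitive replicate 3. Over all genes 30.2%, 17.0%, 16.1% and 17.9% were called lower without resistant replicate 1, resistant replicate 2, sensitive replicate 1 and sensitive replicate 3. Without resistant replicate 2, PSMD11 joined PSMD2 as higher.

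**Figure D3:**
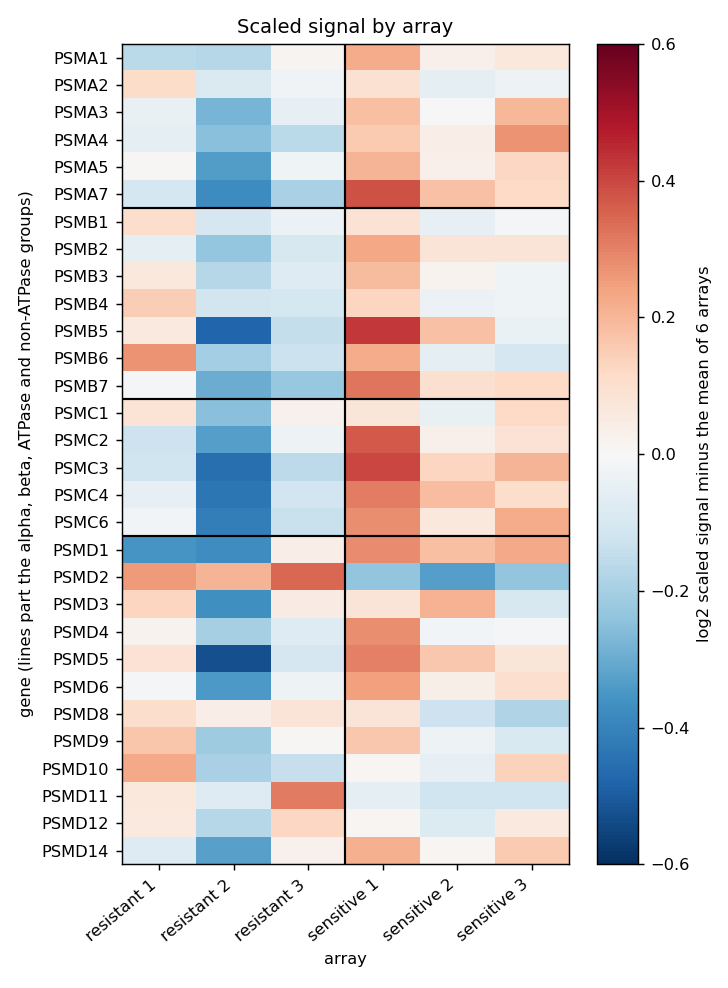
Log2 scaled signal of each of 30 subunits on each array minus its mean over 6 arrays (colour scale in log2 units, red above and blue below), with 3 resistant columns left of 3 sensitive columns and lines between the rings. The column of resistant replicate 2 is the lowest of its group in 30 of 30 rows, and PSMD2 is the row with red in all 3 resistant columns and blue in all 3 sensitive columns.

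Much of the spread was shared by the subunits of an array. Resistant replicate 2 was the lowest of its group for 30 of 30 members, as for 72.5% of genes as bright as the members and 53.3% of all genes. Resistant replicate 1 was the highest of its group for 23 of 30, and sensitive replicate 1 was also the highest of its own for 23 of 30. Of genes as bright as the members, 81.5% and 71.3% were highest there. Sensitive replicate 2 was the lowest of its own for 20 of 30, against 50.3% of those bright genes and 41.3% of all genes. The median deviation of the members from their means was 0.04, -0.25 and -0.04 on the resistant arrays, and 0.21, 0.03 and 0.08 on the sensitive arrays. The genes as bright as the members gave 0.06, -0.24 and -0.11 on the resistant arrays, and 0.17, 0.04 and 0.07 on the sensitive arrays. The 6 arrays fell in the same order by the members as by those genes.

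How the arrays were scaled set the split of calls. Higher and lower members numbered 1 and 9 with the array median, 3 and 7 after quantile normalization, 1 and 7 with the deposited signals as they were, and 3 and 6 with the median of the probe sets that passed the filter. They numbered 4 and 2 when the arrays were divided by the median of genes as bright as the members, a scaling chosen after the values were seen. Over all genes the share called higher was 12.4%, 21.1%, 16.1%, 19.4% and 23.9% under these 5 scalings in the same order. The share called lower was 22.5%, 18.8%, 23.4%, 21.4% and 16.2%. The median of all genes was -0.10, 0.02, -0.05, 0.00 and 0.09 under these 5 scalings in the same order. Members below 0 numbered 26, 17, 22, 19 and 16 in that order. PSMD2 was higher and PSMA7 and PSMC3 were lower under all 5. PSMD8 and PSMD11 were called higher under 3 of them, and PSMA2 under 1. Relative to the median of all genes, the members' median was -0.12 under the 4 scalings that apply 1 factor to each array. These shift the log2 fold changes of all genes alike, so that agreement was fixed in advance. The value after quantile normalization was -0.11.

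**Figure D4:**
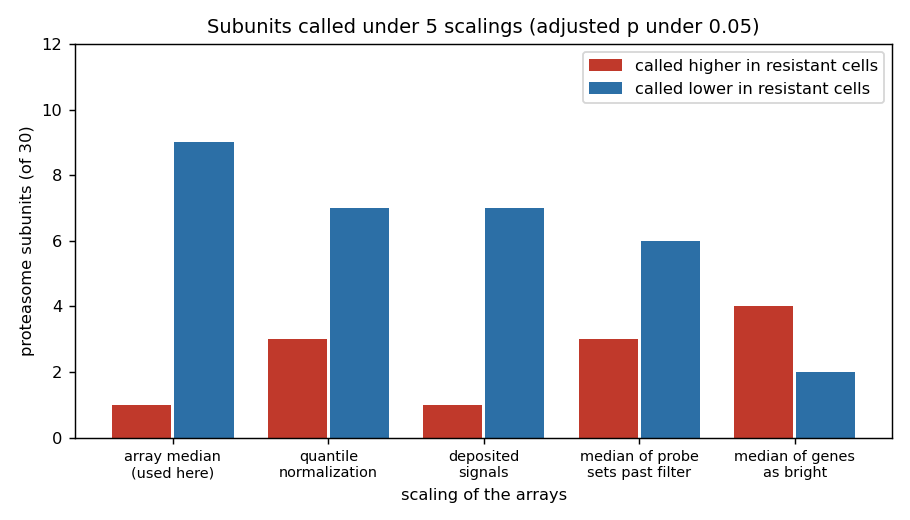
Number of the 30 measured subunits called higher and lower in resistant cells (limma, adjusted p under 0.05; bars from 0) under 5 scalings of the arrays. Lower calls go from 9 with the array median to 2 with genes as bright as the members, where 4 are higher. Over all genes the share called lower goes from 22.5% to 16.2%, and that called higher from 12.4% to 23.9%.

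The inducible counterparts of the catalytic subunits behaved otherwise. These genes lie outside the 34, and all 4 measured of 5 (with PSME2 not analysed here) were lower, with a median of -2.28. PSMB9, the counterpart of PSMB6, had scaled signals of 0.0752, 0.662 and 0.101 in resistant cells, against 20.5, 14.6 and 15 in sensitive cells. In resistant cells it was therefore under the array median on every array, and its log2 fold change of -6.59 (SE 0.48, limma adjusted p = 1.92e-14) rests on signals too dim to give its size. PSMB8, the counterpart of PSMB5, had 3.41, 4.77 and 2.47 in resistant cells, against 40, 31.5 and 32.4 in sensitive cells (-3.33, SE 0.19, limma adjusted p = 1.71e-17). PSMB10, the counterpart of PSMB7, had 14.0, 11.1 and 13.4 in resistant cells, against 34.5, 27.9 and 27.4 in sensitive cells (-1.22, SE 0.17, limma adjusted p = 1.78e-07). PSME1, part of the interferon-induced activator ring, was lower by -0.64 (adjusted p = 0.000414). The fold changes of PSMB5, PSMB6 and PSMB7 were each nearer to 0 than that of the counterpart, and levels of different probe sets were not compared.

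**Figure D5:**
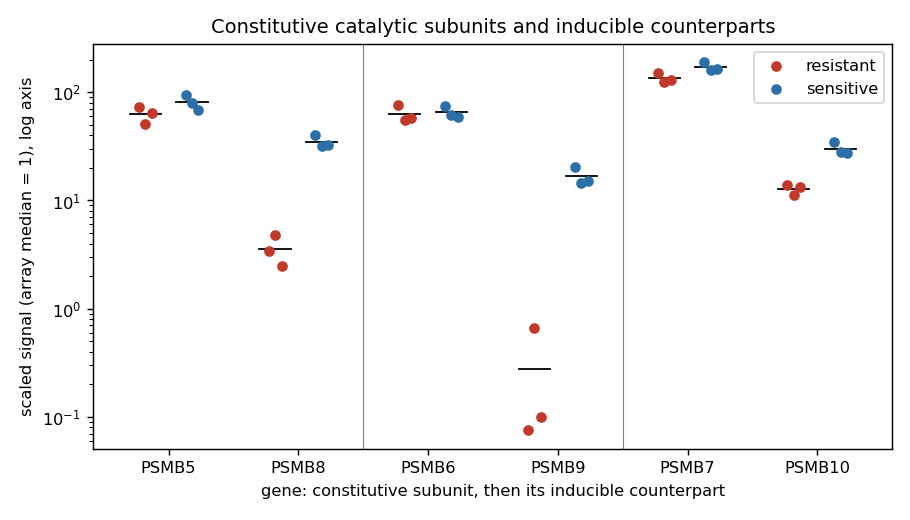
Scaled signal (array median = 1, log axis) of the 3 constitutive catalytic subunits, each followed by its inducible counterpart, with a point for each of 3 resistant and 3 sensitive arrays and a line at the mean. PSMB8, PSMB9 and PSMB10 lie far lower in resistant cells, whereas PSMB6 overlaps and PSMB5 and PSMB7 differ by less than 1.5-fold.

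Genes that work with the proteasome were read from lists chosen with earlier results of these data known. Of the other activators PSME3, the nuclear activator ring, was lower (-0.68, limma adjusted p = 0.000573), and PSME4 did not pass the test (0.34, adjusted p = 0.0859). Of 6 assembly chaperones, 2 were lower, PSMG3 (-0.74), which helps build the alpha ring, and PAAF1 (-0.63), a chaperone of the base, while the other 4 did not pass the test, with -0.22 for PSMG4 and values between -0.04 and 0.09 for PSMG1, PSMG2 and POMP. Of 9 associated proteins, 4 were lower and 0 higher in limma (1 higher at an unadjusted p under 0.05, USP14), with a median of -0.07. The 4 were ADRM1 (-0.87), a ubiquitin receptor of the cap, UCHL5 (-0.43), the deubiquitinase that ADRM1 binds, UBE3C (-0.61), a ubiquitin ligase, and ZFAND5 (-0.31), a proteasome activator. ADRM1 had 49.9, 40.4 and 50.3 in resistant cells, against 97.4, 87.0 and 73.7 in sensitive cells (limma adjusted p = 4.74e-06), a larger fold change than that of any of the 30 subunits. UCHL5 lost its call without resistant replicate 2 (-0.29), sensitive replicate 1 (-0.38) or sensitive replicate 3 (-0.42), and ZFAND5 lost it whichever array other than resistant replicate 1 was left out (-0.34 to -0.25).

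The transcription factor NFE2L1 was itself slightly lower. It had 28.5, 23.6 and 21.9 in resistant cells, against 32.5, 32.2 and 32.4 in sensitive cells (-0.40, SE 0.16, limma adjusted p = 0.0429), and the call was lost in 11 of 18 alternatives, among them whichever array other than resistant replicate 1 was left out (-0.40 to -0.32). NFE2L2, MAFF, MAFG and NGLY1, the enzyme that processes NFE2L1, lay between -0.29 and -0.22, and none passed the test. Of 3 measured ubiquitin and E1 genes, UBA6, an E1 enzyme, was lower (-0.69, adjusted p = 0.000232), as was UBB, a polyubiquitin gene (-0.25, adjusted p = 0.0121), while UBA1, the main E1 enzyme, had 0.25 without passing the test (adjusted p = 0.138, limma). Of 7 receptors and shuttles, UFD1, a cofactor of VCP, was higher (0.36, adjusted p = 0.0119) and UBQLN4, a shuttle, was lower by its brightest probe set (-0.54, adjusted p = 0.0188). UFD1 lost its call without resistant replicate 3 (0.33) or sensitive replicate 2 (0.32), UBB in 7 of 18 alternatives, among them without sensitive replicate 3 (-0.26, adjusted p = 0.0504) and with the scaling to genes as bright as the members (-0.06, adjusted p = 0.604), and UBQLN4 without resistant replicate 2 or 3 or sensitive replicate 1 or 2 (-0.49 to -0.45). The other 5 did not pass the test. NPLOC4, the partner of UFD1, had -0.38 with no overlap (adjusted p = 0.0665), RAD23B had -0.16, and VCP, UBQLN1 and UBQLN2 lay between -0.03 and 0.04.

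The array medians of the deposited signals were 13.3 to 16.9 in resistant cells and 14.2 to 15.4 in sensitive cells. As a check of the label, the summed scaled signal of 11 colon epithelial markers was 1598 to 1797 in resistant cells, against 2061 to 2272 in sensitive cells, with CDX1 and CDX2 under 1 on every array. The markers of fibroblasts summed to 13.2 to 16.2 in resistant cells, against 4.69 to 6.02 in sensitive cells, with 3 of 7 under 1 on every array. COL1A1 had 14.6, 9.46 and 11.4 in resistant cells, against 0.465, 0.867 and 0.89 in sensitive cells. LUM went the other way without overlap, with 0.278, 0.025 and 0.0769 in resistant cells, against 1.51, 1.57 and 1.81 in sensitive cells. COL1A2, COL3A1, DCN, PDGFRA and PDGFRB overlapped between the groups. Those of endothelium summed to 3.12 to 3.5 in resistant cells, against 2.19 to 2.80 in sensitive cells (3 of 4 under 1 on every array). Those of blood cells summed to 379 to 414 in resistant cells, against 410 to 461 in sensitive cells, nearly all of it LYZ (1 of 5 under 1 on every array). The 3' to 5' signal ratio of ACTB, a measure of RNA integrity, was 1.25 ± 0.0698 in resistant cells and 1.14 ± 0.0220 in sensitive cells (SD, n = 3 each, exact permutation p = 0.1, two-sided, the smallest that 3 against 3 allows), and that of GAPDH was 1.02 ± 0.0338 in resistant cells and 1.01 ± 0.0054 in sensitive cells (p = 0.4, exact permutation). Their part in the subunits' values was not tested.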

How the data were processed

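Gene expression was measured on HG U133 PLUS 2.0 arrays in 3 samples of resistant and 3 of sensitive HT29 cells, grouped by the submitters' labels. The values deposited by the authors are linear MAS5 intensity signals of 54675 probe sets. The MAS5 version and the scaling target are not given in the sources used here, and later steps in GeneSpring GX 7.3.1 came after these values. Control probe sets (62) were left out of tests. In the platform annotation 41091 probe sets name 1 gene, 1801 name several and 11721 name none. Symbols were updated by Entrez identifier with RefSeq of GRCh38.p14 (41037 matched). Of 57 probe sets naming 1 member alone, 50 were tested.

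Signals were scaled to an array median of 1, floored at 0.01, and taken to log2. Each gene was represented by its brightest probe set, provided its mean scaled signal was at least 1. Groups were compared in R 4.3.3 with limma 3.58.1 (lmFit, then eBayes with its trend option), with Benjamini-Hochberg adjustment over 11835 genes and a call at an adjusted p under 0.05. Probe sets were fitted in the same way. Intervals are 95% intervals of the fit. The code was tested on simulated data. Figures were drawn with matplotlib 3.10.9. The number of arrays (3 per group) limits the precision, and no scan dates were used, so batches were not tested.

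Members and lists were chosen with earlier results of these data known. By rule, values on every array are given for members past the adjusted p (up to 12), for the 3 catalytic subunits and for members whose probe sets were called in both directions, and up to 4 called members of each related list are named. Members and listed genes outside this rule that are named with a value were picked after their values were seen. Alternatives covered scaling, floor, filter, test, replicate block, each array left out, the probe set and fold thresholds. Some probe sets, such as the brightest of PSMA1 and PSMA7, carry a suffix that the array's maker uses for probes that may match other transcripts.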

Additional observations from a re-analysis of the deposited data

How the results depend on the processing

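The main counts were 1 higher and 9 lower members, with 0 and 4 in the core and 1 and 5 in the cap. Higher and lower members numbered 3 and 7 after quantile normalization (cap 3 and 2, core 5 lower), 3 and 6 with the median of probe sets past the filter (cap 3 higher, core 2 lower), and 4 and 2 with the median of genes as bright as the members, which was chosen after seeing the data (core 1 and 1, cap 3 and 1, core median -0.0456). The shares of all genes called under these scalings are given above. Without a filter on dim genes 4 were lower (core 1, cap 3), against 11.4% of all genes. The methods' t-test, a two-group test with unequal variances and eBayes without a trend each called 0 lower, in core and cap alike. Each called PSMD2 higher, and 8, 5 and 6 members were lower at an unadjusted p under 0.05. Over all genes these tests called 9.49%, 1.13% and 15.9% lower. Requiring a change of 1.5-fold or 3-fold as well left 0 higher and 0 lower with the array median, although PSMD2 was called and passed 1.5-fold after quantile normalization (0.69), with the median of probe sets past the filter (0.64) and with that of genes as bright as the members (0.73). The causes were not tested.

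Leaving out each array in turn gave 1 to 2 higher and 3 to 13 lower members, 1 to 7 lower in the core, 1 to 2 higher and 2 to 6 lower in the cap, medians of -0.29 to -0.17 for the core and -0.23 to -0.11 for the cap, and a difference of -0.09 to -0.02. With 1 array left out, 9.56% to 12.9% of all genes were called higher and 16.1% to 30.2% lower. No source used here states that replicate numbers pair the samples. Over all tested genes, deviations from the group means had correlations of 0.08, 0.02 and 0.05 between same-numbered arrays. Among the members, replicate 1 was the highest for 23 of 30 in both groups, against 81.5% (resistant) and 71.3% (sensitive) of genes as bright as the members. Replicate 2 was the lowest for 30 of 30 in resistant and 20 of 30 in sensitive cells, against 72.5% and 50.3% of those bright genes. Whether the numbers pair samples was not tested. With the replicate block 2 were higher and 16 lower, with 8 lower in the core, and 2 higher and 8 lower in the cap. The block also raised the shares of all genes, to 14.998% called higher and 27.605% lower, from 12.4% and 22.5%. Averaging a gene's probe sets turned the sign of PSMC2 to 0.14 and of UBQLN4 to 0.0351, neither past the test. It also turned the signs of PSMA2, PSMB1, PSMB2, PSMB4 and PSMD12, none of them called either way. Averaging moved PSMB7 to -0.69 through a probe set near the filter. Of 486 values of named genes under these alternatives, 347 kept their direction and side of the threshold, 130 changed side and 9 changed sign, of which 7 were of PSMB6, which was not called.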

Other observations

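Genes next to the subunits on the chromosome were looked at after the values were seen, taking the 5 nearest measured genes on each side in the gene order of GRCh38.p14. The 10 neighbours of PSMD2 on chromosome 3 had 2 higher and 1 lower, with a median log2 fold change of 0.22 (resistant over sensitive) and a range from -0.65 to 0.74. Over all tested genes 12.4% were called higher and 22.5% lower. The 10 neighbours of PSMA7 on chromosome 20, ADRM1 among them, had 0 higher and 4 lower, with a median of -0.49, against -0.45 for PSMA7. Those of PSMA1, PSMB7, PSMC6 and PSMD14 had 4 lower as well, with medians of -0.44, -0.21, -0.28 and 0.14. The 10 neighbours of PSMA4 on chromosome 15 had 0 higher and 5 lower, with a median of -0.59, whereas those of PSMC3 on chromosome 11 had 0 higher and 2 lower, with a median of -0.07, against -0.49 for PSMC3. The 30 measured subunits lie on 14 chromosomes. The neighbourhoods named here were picked from theirs after the values were seen, and an effect of the region was not tested.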
